A study of Mus musculus with 16 samples.

Results

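The 32 genes described here code for proteins that build ribosomes in the nucleolus. They were taken by symbol: 3 subunits of RNA polymerase I, the proteins of both classes of small nucleolar ribonucleoprotein (snoRNP), nucleolar scaffold proteins, and assembly factors of the small and the large ribosomal subunit. All 32 were measured, of 19938 genes in all. The cells were N25/2, a line immortalized from the embryonic mouse hypothalamus, and 16 samples were run on whole-transcript microarrays. Deprived cells were kept in medium without amino acids and control cells in medium with them, for 1, 2, 3, 5 or 16 h. At 5 h there were 4 deprived and 4 control arrays, and at each other time 1 deprived and 1 control array. Routine culture was in DMEM with fetal bovine serum; whether both treatment media held serum is not stated in the labels. The single-time differences have no replicate check, and since the labels do not name separate cultures, p-values at 5 h reflect only how far these samples scatter, and that scatter may be technical. In a bulk sample, fewer cells that express a gene and less RNA per cell cannot be told apart.

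Ribosome production starts with transcription of ribosomal DNA by RNA polymerase I. The small subunit processome then folds and cleaves the long precursor while snoRNPs guide the chemical modification of its nucleotides, and separate sets of factors carry the small and large subunits to the nucleus exit. Making ribosomes is one of the most expensive tasks of a growing cell, and its genes are known targets of the transcription factor Myc and of nutrient signalling through the kinase complex mTORC1.

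Levels are the deposited log2 values, and every difference is the deprived level minus the control level in log2 units. A gene said to rise or fall in a test was higher or lower in deprived than in control cells of the same time. Its level in deprived cells need not have changed over time. The medians of the 16 arrays ran from 7.02 to 7.12. Precision is limited by how few arrays there were. The deprivation was visible in 6 genes of the amino acid response used as a check. All 6 rose at 5 h, among them Trib3, a pseudokinase, by 2.52 (SE 0.12) and Asns, asparagine synthetase, by 1.01 (SE 0.12). Chac1, Ddit3, Atf4 and Sesn2 rose by 2.12, 1.77, 0.95 and 1.85. Of 9 neural progenitor and hypothalamic markers, 5 had a mean level over the 16 arrays above every array median, namely Vim (13.70), Sox2 (10.69), Nes (10.34), Hes1 (8.68) and Msi1 (7.14). Pax6 (5.96) and the hypothalamic factors Nkx2-1 (6.69), Rax (6.73) and Six3 (6.73) lay below all of them. So did 6 of 12 neuronal markers, Tubb3 (5.95) and Rbfox3 (6.47) among them, while 6 lay above, with Map2 the highest (9.54). Of 8 glial markers 1 lay above the array medians, as did 1 of 8 microglial and endothelial ones. The mean level of 8 microglial and endothelial markers was 6.12 to 6.35 on the deprived 5 h arrays and 6.06 to 6.45 on the control ones. At 5 h 1 of 9 progenitor markers fell (Nes, difference -0.69), and of the neuronal, glial, microglial and endothelial ones 0 passed in limma (0 higher and 0 lower of 28 at an unadjusted p under 0.05). With the block described below Gnrh1, a neuropeptide gene, rose (difference 0.29, adjusted p = 0.0127 in limma). Both 5 h arrays numbered 4 stood apart from the rest, so counts of calls at 5 h are also given without them. Without them 1 progenitor marker fell and 1 of the 28 others rose.

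Ribosome biogenesis genes were slightly lower in deprived than in control cells during the first hours and higher after that. The median difference of the 32 genes was -0.11, -0.21, -0.15, 0.18 and 0.72 at 1, 2, 3, 5 and 16 h, where that of all genes was 0.01, -0.01, 0.02, -0.01 and -0.04 at 1, 2, 3, 5 and 16 h. At 1 h, 23 of 32 were below 0 (47 percent of all genes were), at 2 h 26 (51.8 percent) and at 3 h 27 (45.7 percent). At 5 h the group means of 27 genes lay above 0 (44.6 percent of all genes), and at 16 h 29 did, with 3 below 0 (56.2 percent).

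The whole sequence, below 0 at 1, 2 and 3 h and above 0 at both 5 and 16 h, was seen in 14 of the 32 genes, against 3.39 percent of all genes. These were Nop56, Dkc1, Npm1, Nolc1, Utp4, Utp15, Utp18, Heatr1, Wdr75, Wdr12, Nop2, Rrs1, Rrp1b and Rrp12. They were 0 of 3 RNA polymerase I subunits, 1 of 3 box C/D and 1 of 4 box H/ACA snoRNP proteins, 2 of 3 scaffolds, 5 of 10 processome genes, 1 of 3 genes of the PeBoW complex, 3 of 5 further large subunit genes, and Rrp12. A second array row of Wdr12, by its number the likelier one to lie in the gene, was above 0 at 1 h and would not count. No member was above 0 at all 3 early times, as 17.5 percent of all genes were. This order of signs is a description, since the members were taken with earlier results of these data known.

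**Figure D1:**
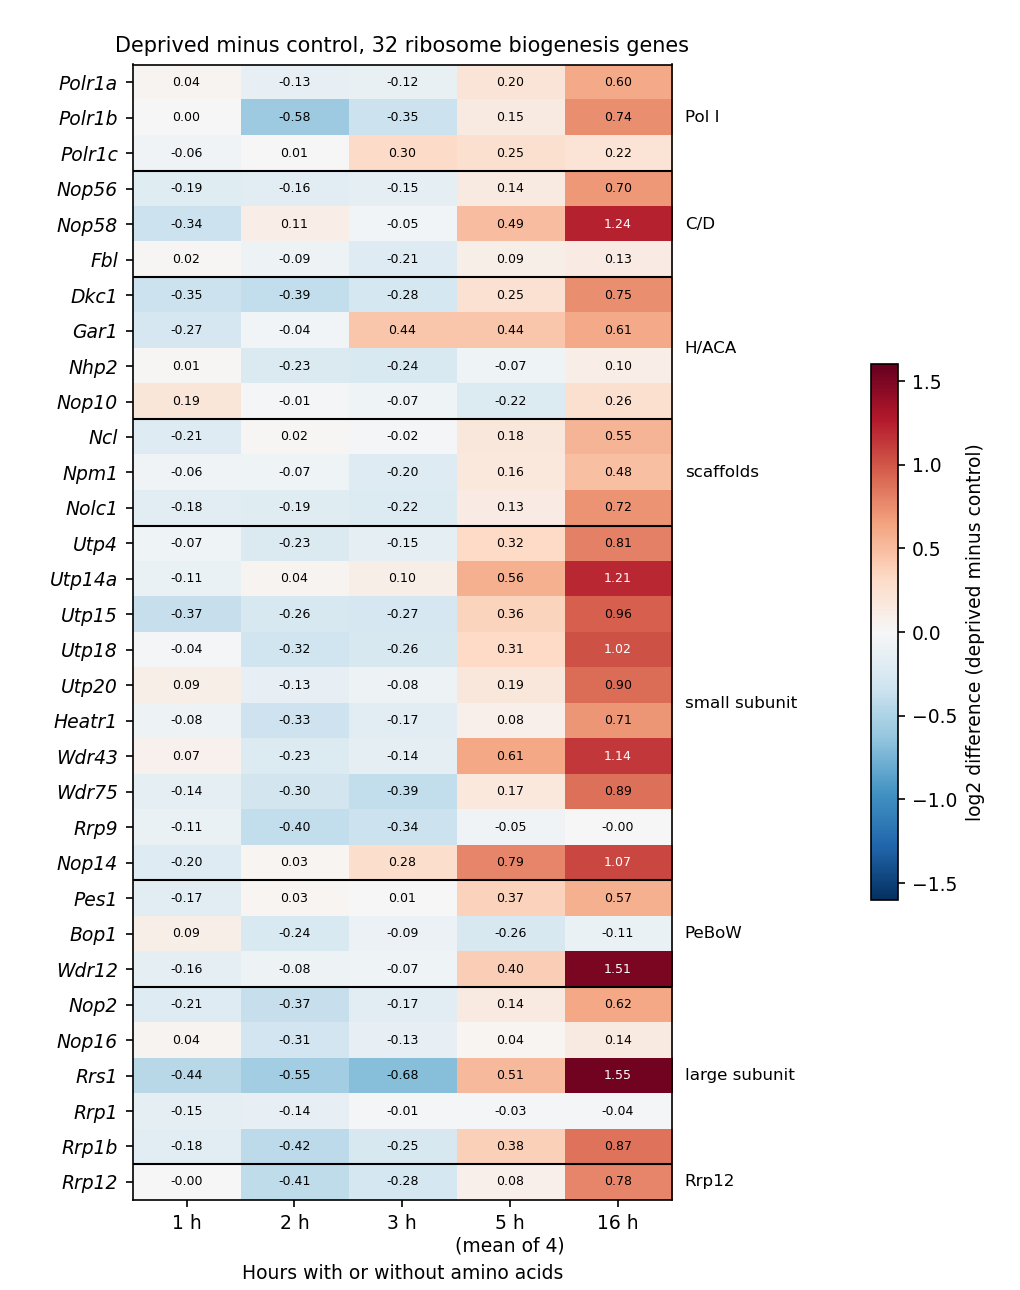
Heat map of the log2 difference, deprived minus control, for the 32 genes (rows, grouped by role) at 1, 2, 3, 5 and 16 h (columns; 1 array a group except at 5 h, where means of 4 arrays are set against each other). Most cells are pale blue at 1 to 3 h, with Rrs1 the lowest at 3 h (-0.68), and red at 16 h, where Rrs1 (1.55) and Wdr12 (1.51) are darkest.

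Which of these genes differed after 5 h, the time with replicates, was tested with limma across all genes. Nop14, Wdr43, Utp14a and Pes1 rose, and no member fell. At an unadjusted p under 0.05, 9 were higher and 1 was lower, against 6.57 and 7.17 percent of all genes. The rises were 4 of 32 genes, where 2.41 percent of all genes rose and 1.7 percent fell. All 3 of the first named belong to the small subunit processome, and Pes1 to the PeBoW complex that processes large subunit RNA.

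Nop14, which in yeast is needed for the nuclear steps of small subunit assembly, was at 10.57, 10.49, 10.44 and 10.23 on deprived arrays 1 to 4, against 9.96, 9.73, 9.64 and 9.26 on control arrays 1 to 4. Every deprived array was above every control array. It rose 1.73-fold, by 0.79 (SE 0.14, adjusted p = 0.0141 in limma, n = 4 each). Without deprived array 1, 2 or 3 its adjusted p was 0.0603, 0.0544 and 0.0526.

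Wdr43, a WD-repeat protein of the processome subcomplex that binds the start of the precursor RNA, was at 10.43, 10.51, 10.39 and 10.29 on deprived arrays 1 to 4, against 9.94, 9.91, 9.83 and 9.49 on control arrays 1 to 4. These groups were also separate, with array 4 lowest in each. Wdr43 rose 1.53-fold, by 0.61 (SE 0.11, adjusted p = 0.0134 in limma), and its adjusted p was 0.0567 and 0.0539 without deprived array 1 and without deprived array 2.

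Utp14a, whose yeast counterpart activates the helicase that releases U3 snoRNA, was at 8.24, 8.13, 8.30 and 8.41 on deprived arrays 1 to 4, against 7.86, 7.69, 7.57 and 7.71 on control arrays 1 to 4. The lowest deprived array was above the highest control array. Utp14a rose 1.48-fold, by 0.56 (SE 0.09, adjusted p = 0.00825 in limma), and passed with each of the 8 arrays left out in turn.

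Pes1, pescadillo, was at 10.20, 10.13, 10.12 and 10.20 on deprived arrays 1 to 4, against 9.99, 9.72, 9.70 and 9.78 on control arrays 1 to 4, again with no overlap. Its rise of 0.37 (SE 0.08, 1.29-fold) had an adjusted p of 0.041 in limma. It passed without control array 1, and with any of the other 7 arrays left out its adjusted p was 0.0532 to 0.147.

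The promoters of these 4 genes are shown because they carry the rise at 5 h. Each is the RefSeq window on GRCm38.p6 from 250 bases before a start site to 30 after it, 5′ to 3′ on the gene's strand. For Wdr43 that site lies 37 bases inside the gene's outermost start in RefSeq's gene table, and for the other 3 genes it is the outermost one. Capitals mark matches to CACGTG (the E-box that Myc can bind), CACGCG (a variant of it) and TGATGNAA (a form of the element that Atf4 binds with C/EBP factors), on either strand.
Nop14, chr5:34660119-34660398, minus strand: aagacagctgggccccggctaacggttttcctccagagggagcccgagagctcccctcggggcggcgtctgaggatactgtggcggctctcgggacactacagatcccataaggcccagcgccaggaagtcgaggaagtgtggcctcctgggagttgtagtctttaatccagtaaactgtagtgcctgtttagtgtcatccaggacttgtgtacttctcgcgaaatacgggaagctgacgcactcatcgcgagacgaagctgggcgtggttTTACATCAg
Wdr43, chr17:71615965-71616244, plus strand: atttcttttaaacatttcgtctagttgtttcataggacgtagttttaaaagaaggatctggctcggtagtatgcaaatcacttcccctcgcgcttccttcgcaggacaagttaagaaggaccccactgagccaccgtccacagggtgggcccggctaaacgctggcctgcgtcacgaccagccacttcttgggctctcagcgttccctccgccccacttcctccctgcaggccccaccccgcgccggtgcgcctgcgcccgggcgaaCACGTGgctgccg
Utp14a, chrX:48256684-48256963, plus strand: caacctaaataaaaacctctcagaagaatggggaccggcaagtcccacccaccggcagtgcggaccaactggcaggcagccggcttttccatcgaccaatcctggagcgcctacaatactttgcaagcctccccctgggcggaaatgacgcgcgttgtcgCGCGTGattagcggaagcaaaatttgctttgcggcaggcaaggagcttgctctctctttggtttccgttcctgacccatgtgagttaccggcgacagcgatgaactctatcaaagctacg
Pes1, chr11:3963725-3964004, plus strand: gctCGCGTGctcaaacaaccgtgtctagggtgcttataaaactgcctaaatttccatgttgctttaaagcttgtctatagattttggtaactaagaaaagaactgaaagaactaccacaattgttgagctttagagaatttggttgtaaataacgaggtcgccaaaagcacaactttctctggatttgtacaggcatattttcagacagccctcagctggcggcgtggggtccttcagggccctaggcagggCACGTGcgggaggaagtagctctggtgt

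Counted from 1 at the 5′ end of the window, the CACGTG letters stood at positions 268 to 273 in Wdr43 and 253 to 258 in Pes1, just past that start site in both. Nop14 had TGATGNAA on the other strand at 272 to 279, and no CACGTG. Utp14a had CACGCG on the other strand at 161 to 166, and Pes1 had the same letters at 4 to 9. RefSeq windows of 300 bases matched 27 of the 32 members, and Fbl, Bop1, Npm1, Rrp12 and Rrs1 were not matched. CACGTG was in the windows of 6 of 27 members (22.2 percent), against 9.5 percent of 15614 genes. Its holders were Nop2, Pes1, Utp18, Utp20, Utp4 and Wdr43.

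Of 7 other motifs searched on both strands, CACGCG was in 9 of 27 members (33.3 percent), against 14.9 percent of 15614 genes. The ETS-type letters CCGGAAG were in 8 members (29.6 percent, against 13.6 percent of genes). For TGATGNAA the member was Nop14 alone (3.7 percent, against 3.62 percent), for CCAAT there were 12 (44.4 against 41.7 percent) and for TATAAA 2 (7.41 against 13.6 percent). GCATGCGC and AAGATGGC were in 0 members (4.27 and 3.77 percent of genes). A match describes letters in a window and shows no binding. CACGTG and CACGCG do not overlap in the printed windows.

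The 5 h arrays carry the numbers 1 to 4 in both groups, and with the number as a block 14 members rose and 2 fell, while 8.22 percent of all genes rose and 10 percent fell. The 14 were Polr1c, Nop58, Dkc1, Gar1, Utp4, Utp14a, Utp15, Utp18, Wdr43, Nop14, Pes1, Wdr12, Rrs1 and Rrp1b, and Nop10 and Bop1 were lower. Without both arrays numbered 4 and without a block, 10 rose and 0 fell (6.34 and 7.17 percent of all genes), with 2 lower at an unadjusted p under 0.05 (13.5 percent). In that setting the 10 were Polr1c, Nop58, Gar1, Utp14a, Wdr43, Nop14, Pes1, Wdr12, Rrs1 and Rrp1b. With the block and without these arrays, a setting chosen after seeing the data, 9 rose and 0 fell (5.65 and 5.96 percent of all genes). On 9 members every deprived array was above every control array (5.15 percent of all genes), and on 0 every one was below (5.38 percent).

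**Figure D2:**
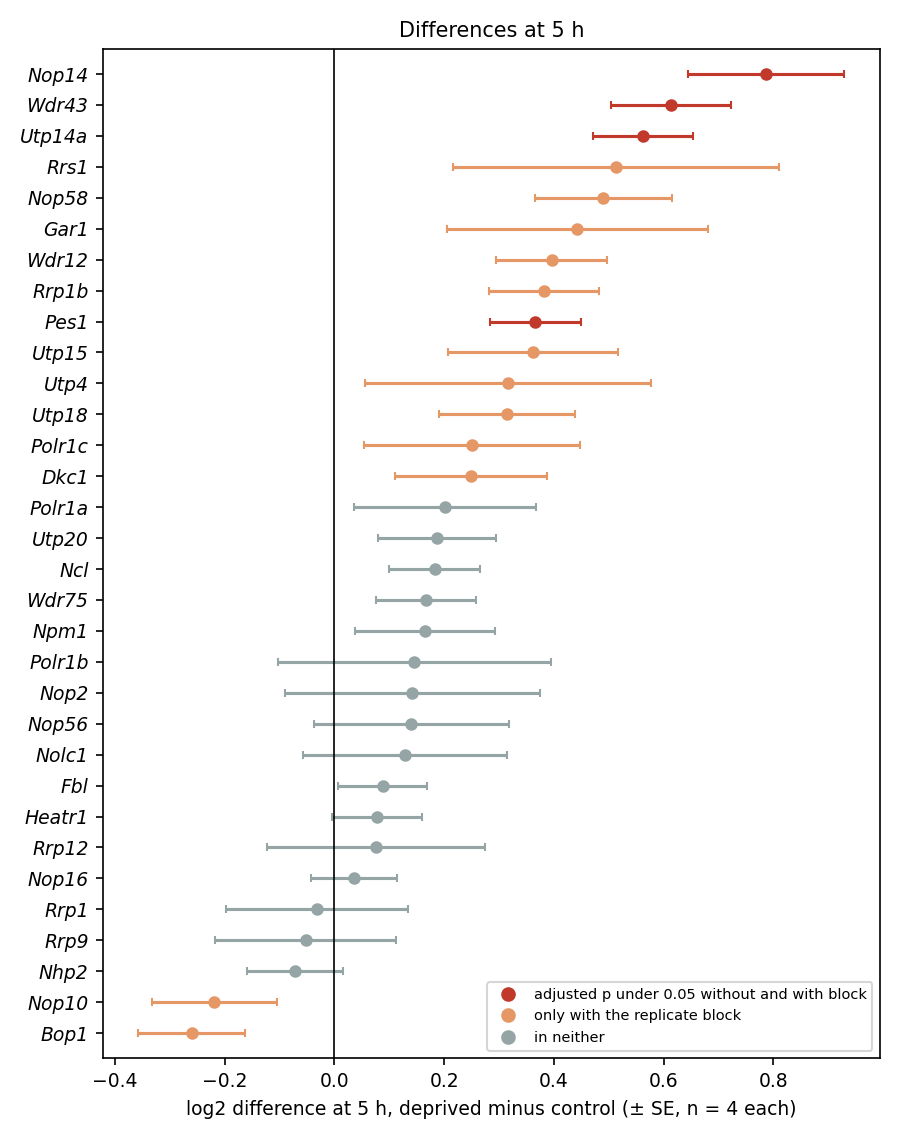
Differences at 5 h, deprived minus control on the log2 scale, for the 32 genes in order of size, with the standard error of limma's fit (n = 4 arrays a group). Nop14, Wdr43, Utp14a and Pes1 are dark red (adjusted p under 0.05 without and with the replicate block), the other genes called with the block are orange, and Bop1 (-0.26) and Nop10 (-0.22) lie at the low end.

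RNA polymerase I subunits did not pass at 5 h, and their differences were larger at 16 h for both of the large subunits. Polr1a, the largest subunit, differed by 0.04, -0.13, -0.12, 0.20 (SE 0.17) and 0.60 at 1, 2, 3, 5 and 16 h. Polr1b, the second largest, differed by 0.0004, -0.58, -0.35, 0.15 (SE 0.25) and 0.74 at 1, 2, 3, 5 and 16 h. At 2 h Polr1b was at 9.70 on the deprived array against 10.28 on the control array, one of 2 members that were lower by 0.5 or more at that time, beside Rrs1. Polr1c, shared with RNA polymerase III, went another way, with differences of -0.06, 0.01, 0.30, 0.25 (SE 0.20) and 0.22 at 1, 2, 3, 5 and 16 h. Its level was highest on array 4 in both groups at 5 h, whereas Polr1a and Polr1b were lowest there. Polr1c passed with the replicate block (adjusted p = 0.0117 in limma), and Polr1a and Polr1b did not (0.0604 and 0.205).

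Of the box C/D snoRNP proteins, which carry the methylation of ribosomal RNA, Nop58 had the largest differences at 5 and 16 h. Nop58, a core protein whose gene also hosts snoRNAs in its introns, was at 10.38, 10.39, 10.31 and 10.22 on deprived arrays 1 to 4, against 10.16, 9.92, 9.71 and 9.55 on control arrays 1 to 4 at 5 h. The groups did not overlap, and the difference of 0.49 (SE 0.13) had an adjusted p of 0.0671 in limma, 0.00117 with the replicate block and 0.0156 with both arrays numbered 4 left out. Its differences at 1, 2, 3 and 16 h were -0.34, 0.11, -0.05 and 1.24. Nop56, its paralog and partner in the particle, differed by -0.19, -0.16, -0.15, 0.14 (SE 0.18) and 0.70 at 1, 2, 3, 5 and 16 h. Fbl, fibrillarin, the methyltransferase itself, differed by 0.02, -0.09, -0.21, 0.09 (SE 0.08) and 0.13 at 1, 2, 3, 5 and 16 h. Fbl has a second array row, and no position was given for either row. The row numbers of the other members are grouped by chromosome. By its number the kept row falls among those of chromosome 17, while the Fbl gene lies on chromosome 7, so these values may come from a copy elsewhere. The second row falls between those of chromosomes 6 and 8 and is the likelier one to lie in the gene. That row gave -0.36, -0.07, 0.11, 0.03 and 0.17 at the same times, with the opposite sign at 1 and 3 h. At 16 h Nop58 was 2.35-fold and Nop56 1.62-fold of the control array.

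The box H/ACA proteins guide pseudouridine formation, and Dkc1, Nhp2, Nop10 and Gar1 sit together in each particle. Dkc1, dyskerin, the pseudouridine synthase, differed by -0.35, -0.39, -0.28, 0.25 (SE 0.14) and 0.75 at 1, 2, 3, 5 and 16 h. Its adjusted p at 5 h was 0.538 in limma and 0.017 with the block. Gar1 was at 9.63, 9.86, 9.69 and 10.46 on deprived arrays 1 to 4, against 9.36, 9.21, 9.18 and 10.12 on control arrays 1 to 4 at 5 h, so array 4 was highest in both groups and the groups overlapped. Gar1 differed by -0.27, -0.04, 0.44, 0.44 (SE 0.24) and 0.61 at 1, 2, 3, 5 and 16 h, and passed with the block (adjusted p = 0.00154 in limma). Nhp2 differed by 0.01, -0.23, -0.24, -0.07 (SE 0.09) and 0.10 at 1, 2, 3, 5 and 16 h. Nop10 went the other way at 5 h, with differences of 0.19, -0.01, -0.07, -0.22 (SE 0.11) and 0.26 at 1, 2, 3, 5 and 16 h, and was lower with the block (adjusted p = 0.0282 in limma) but not without both arrays numbered 4 (0.0914).

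The 3 nucleolar scaffold and chaperone genes lay above 0 at both 5 and 16 h. Ncl, nucleolin, was at 12.11, 12.11, 12.15 and 12.10 on deprived arrays 1 to 4, against 12.07, 12.02, 11.83 and 11.80 on control arrays 1 to 4 at 5 h, without overlap but with a small difference (0.18, SE 0.08, adjusted p = 0.376 in limma). At 1, 2, 3 and 16 h Ncl differed by -0.21, 0.02, -0.02 and 0.55. Npm1, nucleophosmin, a histone and ribosome chaperone, differed by -0.06, -0.07, -0.20, 0.16 (SE 0.13) and 0.48 at 1, 2, 3, 5 and 16 h. Nolc1, a chaperone of snoRNPs, differed by -0.18, -0.19, -0.22, 0.13 (SE 0.19) and 0.72 at 1, 2, 3, 5 and 16 h. None of the 3 passed at 5 h, with the block or without it.

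The 10 small subunit processome genes held 3 of the 4 rises at 5 h, and their median difference was -0.09, -0.25, -0.16, 0.32 and 0.93 at 1, 2, 3, 5 and 16 h. With the block 6 of them rose and 0 fell (8.22 and 10 percent of all genes), and with both arrays numbered 4 left out 3 rose and 0 fell (6.34 and 7.17 percent). At 16 h 9 were higher by 0.5 or more (9.36 percent). Utp15, Utp4, Heatr1, Wdr43 and Wdr75 code for the subcomplex that joins first, known in human cells to help RNA polymerase I transcription too. Utp15 was at 9.16, 8.92, 8.93 and 9.02 on deprived arrays 1 to 4, against 9.04, 8.72, 8.21 and 8.63 on control arrays 1 to 4 at 5 h, with overlap between the groups. Utp15 differed by -0.37, -0.26, -0.27, 0.36 (SE 0.16) and 0.96 at 1, 2, 3, 5 and 16 h, and passed with the block (adjusted p = 0.0164 in limma). Wdr75 differed by -0.14, -0.30, -0.39, 0.17 (SE 0.09) and 0.89 at 1, 2, 3, 5 and 16 h, and Heatr1 by -0.08, -0.33, -0.17, 0.08 (SE 0.08) and 0.71 at 1, 2, 3, 5 and 16 h, and neither passed in either fit.

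Utp4 was far lower on array 4 than on the others, at 11.55, 11.61, 11.56 and 10.89 on deprived arrays 1 to 4, against 11.44, 11.35, 11.27 and 10.28 on control arrays 1 to 4. Its difference of 0.32 (SE 0.26) passed with the block (adjusted p = 0.017 in limma) and not without both arrays numbered 4 (0.0637). At the other times Utp4 differed by -0.07, -0.23, -0.15 and 0.81 at 1, 2, 3 and 16 h. Utp18, a later processome component, differed by -0.04, -0.32, -0.26, 0.31 (SE 0.12) and 1.02 at 1, 2, 3, 5 and 16 h, without overlap at 5 h. Utp20, a very large scaffold protein, differed by 0.09, -0.13, -0.08, 0.19 (SE 0.11) and 0.90 at 1, 2, 3, 5 and 16 h. Rrp9, a protein of the U3 snoRNP, did not follow the others, with differences of -0.11, -0.40, -0.34, -0.05 (SE 0.16) and -0.0028 at 1, 2, 3, 5 and 16 h. Rrp9 was lower in deprived cells in all 4 same-numbered pairs at 5 h, and at 16 h it was at 8.05 on the deprived array against 8.06 on the control array.

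The other times of the 3 processome genes that rose at 5 h differed among them. Nop14 differed by -0.20, 0.03, 0.28 and 1.07 at 1, 2, 3 and 16 h, and so was above 0 from 2 h on. Utp14a differed by -0.11, 0.04, 0.10 and 1.21, likewise above 0 from 2 h on. Wdr43 differed by 0.07, -0.23, -0.14 and 1.14, and was below 0 at 2 and 3 h.

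Pes1, Bop1 and Wdr12 form the PeBoW complex, which is needed for large subunit RNA processing, and its 3 genes had differences of unlike sign at 5 h. Wdr12 was at 9.72, 9.50, 9.61 and 9.79 on deprived arrays 1 to 4, against 9.38, 9.38, 9.26 and 9.04 on control arrays 1 to 4 at 5 h, without overlap. Its difference of 0.40 (SE 0.10) had an adjusted p of 0.068 in limma and 0.00937 with the block. At 16 h Wdr12 was at 10.38 on the deprived array against 8.87 on the control array, a 2.84-fold difference. These values are from the brighter of a pair of array rows of Wdr12. As for Fbl, no position was given. By its number the brighter row falls between those of chromosomes 6 and 8, while the gene lies on chromosome 1, so these values may come from a copy elsewhere. The other row falls among those of chromosome 1 and is the likelier one to lie in the gene. The other row gave 0.03, -0.23, -0.25, 0.55 and 1.71 at 1, 2, 3, 5 and 16 h. With the mean of both rows the difference at 5 h was 0.47 and passed (adjusted p = 0.0358 in limma).

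Bop1, in contrast, was at 9.98, 9.85, 9.89 and 9.61 on deprived arrays 1 to 4, against 10.21, 10.10, 10.10 and 9.96 on control arrays 1 to 4 at 5 h. Deprived array 1 (9.98) was just above control array 4 (9.96), so the groups overlapped by that pair. The difference of -0.26 (SE 0.10) had an adjusted p of 0.238 in limma, 0.0108 with the block and 0.0532 with both arrays numbered 4 left out. At 16 h Bop1 differed by -0.11 and Pes1 by 0.57. At 1, 2 and 3 h Bop1 differed by 0.09, -0.24 and -0.09, Pes1 by -0.17, 0.03 and 0.01, and Wdr12 by -0.16, -0.08 and -0.07.

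Among the other large subunit factors Rrs1 had the widest swing. Rrs1, whose yeast counterpart brings the 5S particle into the large subunit, was at 8.70 on the deprived array against 9.14 on the control array at 1 h, at 8.92 on the deprived array against 9.47 on the control array at 2 h and at 8.53 on the deprived array against 9.21 on the control array at 3 h. The deprived array was below the control array at each of these times. At 5 h Rrs1 was at 9.15, 9.17, 9.15 and 8.32 on deprived arrays 1 to 4, against 8.81, 8.92, 8.43 and 7.58 on control arrays 1 to 4, and at 16 h at 9.25 on the deprived array against 7.70 on the control array, which is 2.92-fold of control. At 5 h array 4 was far lower than the others in both groups, the difference was 0.51 (SE 0.30), and its adjusted p was 0.574 in limma, 0.0019 with the block and 0.0219 with both arrays numbered 4 left out.

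Rrp1b and Rrp1 are paralogs, counterparts of a yeast large subunit factor, and their differences were unlike from 5 h on. Rrp1b was at 9.21, 9.04, 9.21 and 8.91 on deprived arrays 1 to 4, against 8.88, 8.73, 8.68 and 8.55 on control arrays 1 to 4 at 5 h, without overlap, and its difference of 0.38 (SE 0.10) had an adjusted p of 0.0751 in limma and 0.00162 with the block. Over the other times it differed by -0.18, -0.42, -0.25 and 0.87 at 1, 2, 3 and 16 h. Rrp1 differed by -0.15, -0.14, -0.01, -0.03 (SE 0.17) and -0.04 at 1, 2, 3, 5 and 16 h, and was highest on array 4 in both groups. Nop2, a methyltransferase of large subunit RNA, differed by -0.21, -0.37, -0.17, 0.14 (SE 0.23) and 0.62 at 1, 2, 3, 5 and 16 h. Nop16, a further nucleolar protein of large subunit assembly in yeast, differed by 0.04, -0.31, -0.13, 0.04 (SE 0.08) and 0.14 at 1, 2, 3, 5 and 16 h. Rrp12, which in yeast helps export both subunits, differed by -0.0022, -0.41, -0.28, 0.08 (SE 0.20) and 0.78 at 1, 2, 3, 5 and 16 h.

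**Figure D3:**
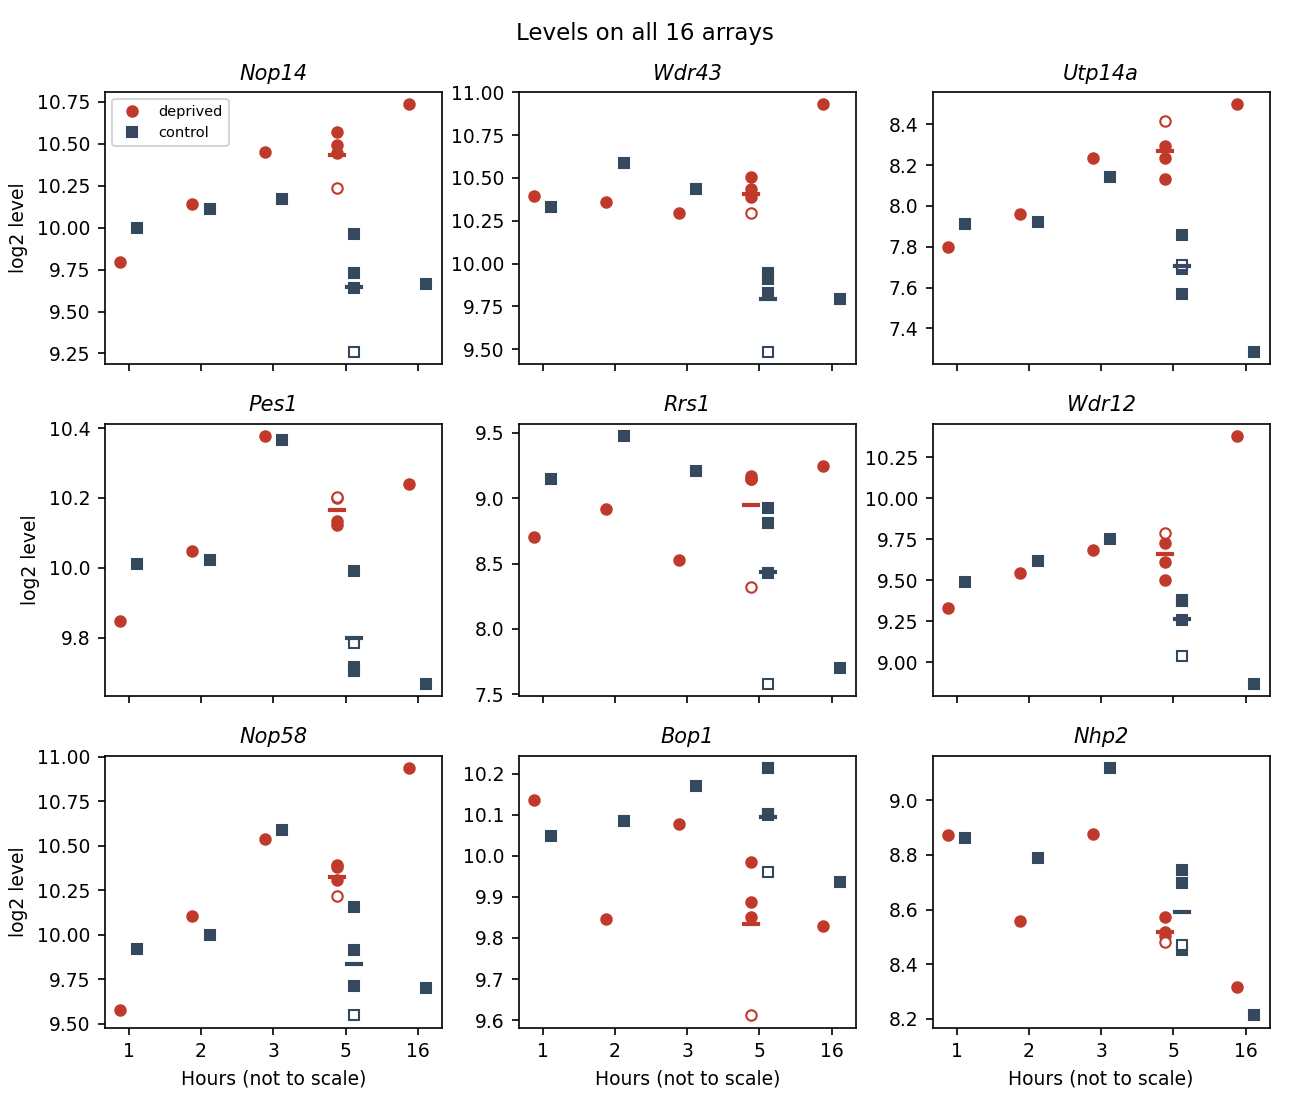
Log2 levels of 9 genes on all 16 arrays, deprived (red circles) left of control (dark squares) at each time, with hours not to scale. At 5 h bars mark the means of 4 arrays and open symbols are the arrays numbered 4; Nop14, Wdr43, Utp14a, Pes1, Wdr12 and Nop58 are separated at 5 and 16 h, Rrs1 crosses from below control at 1 to 3 h to above it at 16 h, and in Bop1 and Nhp2 the deprived mean lies below the control mean at 5 h.

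The early difference was tested as the mean difference over 1, 2 and 3 h, with time as a factor and 3 arrays a group. Rrs1 fell, by 0.56 (SE 0.08, adjusted p = 0.0406 in limma), and no other member passed. That is 1 of 32, where 0.125 percent of all genes fell and 0.0502 percent rose. At an unadjusted p under 0.05, 13 members were lower and 0 higher, against 5.69 and 5.12 percent of all genes.

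Without the 2 h arrays the difference of Rrs1 was -0.56 with an adjusted p of 0.117 in limma, and 0 members passed. Without the 1 h arrays 3 did, Rrs1, Polr1b (-0.46) and Rrp9 (-0.37). The next largest early differences were those of Dkc1 (-0.34, SE 0.07, adjusted p = 0.104), Polr1b (-0.31, SE 0.11, adjusted p = 0.314) and Utp15 (-0.30, SE 0.07, adjusted p = 0.15). The members' median was -0.12 (0.01 over all genes), and 27 of 32 means lay below 0 (9172 of 19938 over all genes). Differences of 0.5 or more on single early arrays were few, with Polr1b and Rrs1 lower at 2 h (0.978 percent of all genes) and Rrs1 at 3 h (1.1 percent). None reached that at 1 h (0.557 percent).

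Whether the difference at 5 h departed from the early one was tested directly, as the 5 h difference minus the mean over 1, 2 and 3 h. It was above 0 for 30 of 32 members (8406 of 19938 over all genes), with a median of 0.36 (all genes -0.03). No member passed in limma (0.155 percent of all genes were higher and 0.0201 percent lower), and 13 were higher at an unadjusted p under 0.05 (3.53 percent) and 0 lower (2.46 percent). With each same-numbered pair as a block 11 members passed, all higher at 5 h, where 2.02 percent of all genes were higher and 0.983 percent lower. These were Nop58, Dkc1, Utp4, Utp14a, Utp15, Wdr43, Wdr75, Nop14, Pes1, Rrs1 and Rrp1b.

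Without both 5 h arrays numbered 4, and with no block, 6 members passed (1.39 percent of all genes were higher). These were Dkc1, Utp14a, Wdr43, Nop14, Rrs1 and Rrp1b. With the block and without these arrays 6 passed (1.27 percent). Without control array 4 alone Wdr43 passed (adjusted p = 0.0471 in limma). Rrs1 had the largest shift, 1.07 (SE 0.41, adjusted p = 0.594 in limma without the block, and SE 0.13, adjusted p = 0.00114 with it). Nop14 shifted by 0.75 (0.267 and 0.00529), Wdr43 by 0.71 (0.125 and 0.0032) and Rrp1b by 0.67 (0.122 and 0.00282), where the values in parentheses are adjusted p in limma without and with the block. Nop10 (-0.26) and Bop1 (-0.18) were the members below 0. A difference below 0 at 1, 2 and 3 h and above 0 in all 4 same-numbered pairs at 5 h was seen in 12 members, against 1.46 percent of all genes.

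After 16 h most of these genes were higher in the deprived sample. With 1 array a group, 23 of 32 were higher by 0.5 or more (9.36 percent of all genes) and 0 lower (8.99 percent). From a difference of 1 there were 7 (1.96 percent of all genes), Rrs1 (1.55), Wdr12 (1.51), Nop58 (1.24), Utp14a (1.21), Wdr43 (1.14), Nop14 (1.07) and Utp18 (1.02). At the low end were Bop1 (-0.11), Rrp1 (-0.04), Rrp9 (-0.0028), Nhp2 (0.10), Fbl (0.13) and Nop16 (0.14). No test was made on these single arrays. On the same arrays all 9 progenitor markers were below 0, 3 of them by 0.5 or more, namely Sox2 (-1.27), Nes (-0.72) and Vim (-0.54). Their mean level was 8.22 on the deprived array against 8.58 on the control array. Of the 28 markers of other cell types 21 were below 0 and 0 by 0.5 or more, with mean levels of 6.70 and 6.81. The part of these markers in the result was not tested.

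At 16 h the levels of both arms lay away from those at 3 h. The mean level of the 32 genes in deprived cells was 9.86, 9.96, 10.10, 9.98 (SD 0.07, n = 4) and 10.26 at 1, 2, 3, 5 and 16 h. In control cells it was 9.97, 10.16, 10.23, 9.76 (SD 0.17, n = 4) and 9.58 at 1, 2, 3, 5 and 16 h. So both arms were higher at 3 h than at 1 h. From 3 to 5 h both arms went down, the deprived arm from 10.10 to 9.98 and the control arm from 10.23 to 9.76. At 16 h the control arm was lower still and the deprived arm was at its highest. The deprived 16 h array was above the other 7 deprived arrays for 21 members (19.9 percent of all genes), and the control 16 h array below the other 7 control arrays for 11 (10.7 percent). Both held for Utp14a, Utp18, Utp20, Heatr1, Wdr75 and Wdr12, and the share of all genes with both was not counted.

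Utp14a was among the genes with both. Its deprived levels were 7.80, 7.96, 8.24 and 8.50 at 1, 2, 3 and 16 h, and its control levels 7.91, 7.92, 8.14 and 7.29. At 5 h the mean of 4 arrays was 8.27 (SD 0.12) in deprived and 7.71 (SD 0.12) in control cells. For Wdr43 the control levels were 10.33, 10.58 and 10.43 at 1, 2 and 3 h. They were 9.79 at 5 h (mean of 4 arrays, SD 0.21) and 9.79 at 16 h, both below all 3 early ones. The deprived levels of Wdr43 were 10.39, 10.36 and 10.30 at 1, 2 and 3 h, 10.41 at 5 h (mean of 4 arrays, SD 0.09) and 10.93 at 16 h. The 3 early deprived arrays and the 5 h mean lay close together and the 16 h array above them. So at 5 h the control level of Wdr43 had gone down while the deprived one had hardly moved.

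**Figure D4:**
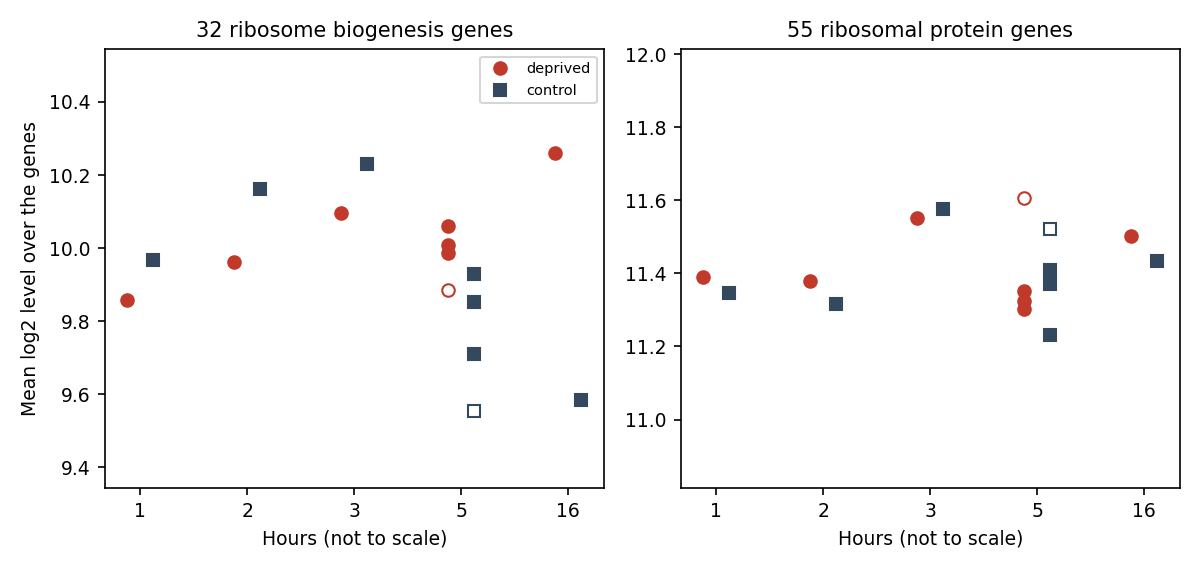
Mean log2 level over 32 ribosome biogenesis genes (left) and 55 ribosomal protein genes (right) on each of the 16 arrays, deprived (red circles) left of control (dark squares), with open symbols for the 5 h arrays numbered 4. On the left the arms are 10.26 and 9.58 at 16 h; on the right, on a scale of equal span, they are 11.50 and 11.43.

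Other genes of the pathway, from lists that hold none of the 32, had median differences of the members' signs at each time where they belong to subunit assembly. The same held, by less at 16 h, for the RNA polymerase III and snoRNP assembly genes given below. Of 44 further small subunit factors the median difference was -0.09, -0.13, -0.16, 0.10 and 0.48 at 1, 2, 3, 5 and 16 h. At 5 h 1 of the 44 rose, Wdr3, a processome WD-repeat protein, by 0.43 (SE 0.09), and 0 fell. Of all genes 2.41 percent rose and 1.7 percent fell, so 1 rise in 44 is near the share of all genes. With the block 14 rose and 2 fell (8.22 and 10 percent of all genes). Without both arrays numbered 4 there were 9 rises and 1 fall (6.34 and 7.17 percent). The call of Wdr3 held in 9 of 17 alternatives and, of single arrays left out, held without control array 4 alone (adjusted p up to 0.124 in limma). At 16 h 21 were higher by 0.5 or more and 0 lower (9.36 and 8.99 percent). Over 1, 2 and 3 h 1 fell, Mphosph10, a U3 snoRNP protein named after its values were seen (differences of -0.44, -0.47 and -0.53, adjusted p = 0.0433 in limma), and at 16 h it differed by 1.15. Its early call was lost without the 2 h arrays and without the 3 h arrays (adjusted p up to 0.148 in limma).

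Of 48 further large subunit factors the median was -0.10, -0.17, -0.15, 0.14 and 0.62 at 1, 2, 3, 5 and 16 h. Gtpbp4, a GTPase of early large subunit particles, rose by 0.47 (SE 0.11) at 5 h, Rpf1 by 0.41 (SE 0.08) and Tex10 by 0.34 (SE 0.07), and 0 fell (of all genes 2.41 percent rose and 1.7 percent fell). These calls held in 10 of 17, 12 of 17 and 11 of 17 alternatives. With single arrays left out that of Gtpbp4 held without control array 1 alone, that of Rpf1 without control array 4 or deprived array 2 or 4, and that of Tex10 without either array 4 (adjusted p otherwise up to 0.129, 0.0905 and 0.101 in limma). With the block 17 rose and 2 fell (8.22 and 10 percent of all genes), and with both arrays numbered 4 left out 8 rose and 2 fell (6.34 and 7.17 percent). At 16 h 26 were higher by 0.5 or more and 0 lower (9.36 and 8.99 percent). In the test of the 5 h difference against the early one, 0 genes of either list passed without the block. With it 10 and 12 passed as higher (2.02 percent of all genes).

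Ribosomal protein genes had differences near 0. Of 55 measured, 0 passed at 5 h in limma in either direction, without the block or with it (1 was higher and 0 lower at an unadjusted p under 0.05), nor did any without both arrays numbered 4. Their median difference was 0.05, 0.04, -0.04, 0.01 and 0.07 at 1, 2, 3, 5 and 16 h. At 16 h 1 was higher by 0.5 or more, Rps15a (0.62), a small subunit protein named after its values were seen, and 0 were lower. Ribosomal protein genes have many near-identical pseudogenes, so their array rows may mix signals, and 24 of 79 listed were not analysed here. At 16 h their mean level was 11.50 on the deprived array against 11.43 on the control array, and at 5 h 11.40 (SD 0.14) against 11.38 (SD 0.12, n = 4 each).

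Of 13 further RNA polymerase I genes 0 rose and 1 fell at 5 h, Znrd1, a small subunit of the enzyme, by 0.37 (SE 0.08). The list's median was 0.06 at 5 h and 0.25 at 16 h, and 3 rose and 1 fell with the block (2 and 1 with both arrays numbered 4 left out). Of all genes 2.41 percent rose and 1.7 percent fell at 5 h. With the block 8.22 and 10 percent did, and without both arrays numbered 4 6.34 and 7.17 percent. These shares apply to each list of this paragraph. The call of Znrd1 held in 9 of 17 alternatives and, of single arrays left out, held without either array 4 alone (adjusted p otherwise up to 0.12 in limma). Of 19 RNA polymerase III genes 1 fell, Gtf3c1, the largest subunit of its factor TFIIIC, by 0.49 (SE 0.08). With the block 2 rose and 2 fell (3 and 2 with both arrays numbered 4 left out). The median of these 19 was -0.03, -0.06, -0.01, 0.05 and 0.34 at 1, 2, 3, 5 and 16 h. Of 14 RNA exosome genes, which trim and degrade RNA, 0 passed at 5 h in limma without the block (3 higher and 1 lower at an unadjusted p under 0.05), while 6 rose and 1 fell with it (8.22 and 10 percent of all genes) and 5 rose and 1 fell without both arrays numbered 4 (6.34 and 7.17 percent), and the median was 0.55 at 16 h. Of 10 snoRNP assembly genes 0 passed in limma without the block (1 and 1, likewise) and 2 rose with it (1 rose and 1 fell without both arrays numbered 4). Their median was -0.09, -0.21, -0.12, 0.01 and 0.26 at 1, 2, 3, 5 and 16 h.

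Myc, the transcription factor named above, was at 11.69, 11.63, 11.45 and 11.47 on deprived arrays 1 to 4, against 10.52, 10.48, 10.23 and 9.65 on control arrays 1 to 4 at 5 h. The groups were separate, and Myc was 2.53-fold higher in deprived than in control cells, by 1.34 (SE 0.18, adjusted p = 0.00268 in limma). Its deprived levels were 11.61, 11.26 and 11.62 at 1, 2 and 3 h, with a mean of 11.56 at 5 h. Control levels were 11.77, 10.89 and 10.85 at 1, 2 and 3 h, with a mean of 10.22 at 5 h. So the control level went down from 1 to 5 h, while the deprived one ended near its 1 h value. The differences of Myc at 1, 2, 3 and 16 h were -0.16, 0.36, 0.77 and 2.18. At 2 and 3 h, with 1 array a group, Myc was higher on the deprived array and the median member was lower. The part of Myc in the members' differences was not tested. Of the 12 genes of the Myc network Mga, a partner of Max, also rose at 5 h, by 0.56 (SE 0.08). Mxd3, a gene for a repressor that pairs with Max, fell by 0.57 (SE 0.12). Of all genes 2.41 percent rose and 1.7 percent fell in that fit. The call of Mxd3 held in 11 of 17 alternatives and, of single arrays left out, held without either array 4 alone (adjusted p otherwise up to 0.102 in limma). With the block 3 of the 12 rose and 2 fell (8.22 and 10 percent of all genes), as did 3 and 2 without both arrays numbered 4 (6.34 and 7.17 percent).

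**Figure D5:**
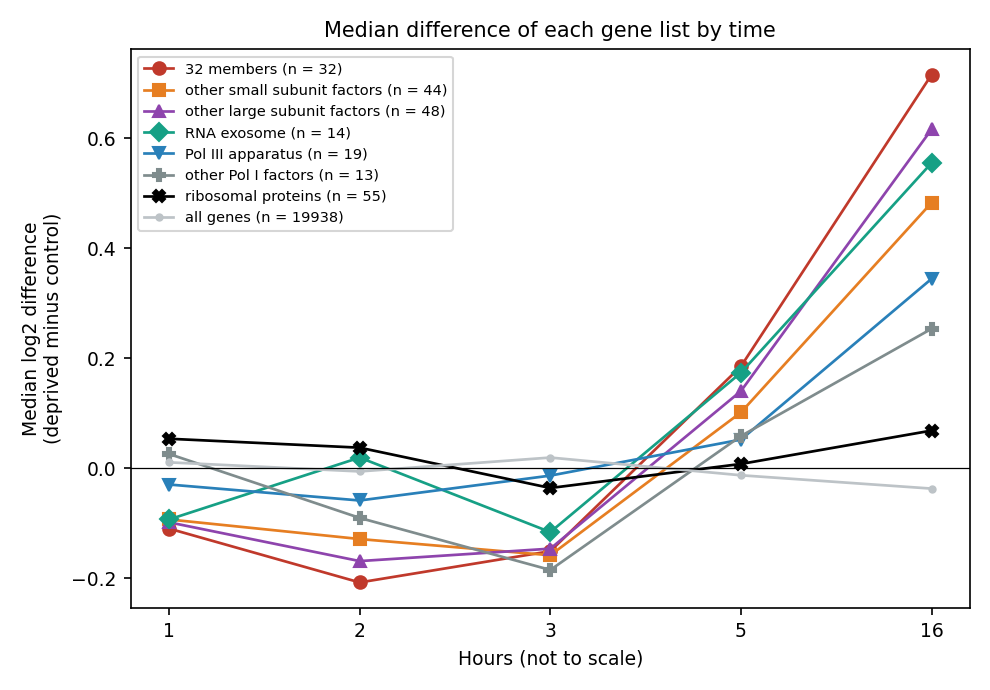
Median log2 difference, deprived minus control, of each gene list at 1, 2, 3, 5 and 16 h (hours not to scale; 1 array a group except at 5 h). The 32 members (0.72 at 16 h), the further subunit factors and the RNA polymerase III genes (0.34 at 16 h) lie below 0 at 1 to 3 h and above it at 5 and 16 h. Ribosomal proteins (0.07 at 16 h) and all genes (-0.04) stay near 0.

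At 5 h many genes, among the members as over all genes, had their lowest or highest level on the arrays numbered 4 in both groups. Array 4 was the lowest in both groups for 19 of 32 members (39.8 percent of all genes) and the highest in both for 5 (28.3 percent), namely Polr1c, Fbl, Gar1, Nop10 and Rrp1. The mean level of the members was 9.88 on deprived array 4 and 9.99 to 10.06 on the other deprived arrays, against 9.55 on control array 4, with the other controls at 9.71 to 9.93. Control array 4 was thus the lowest of the 8. The members' median difference at 5 h was 0.14 without both of these arrays and 0.18 with them.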

How the data were processed

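The series was deposited as a table of log2 values, made by the authors. The submitters' processing notes name RMA, the robust multi-array average that corrects background and brings arrays to one scale, and limma. Settings and versions are not given in the sources used here. Per the labels' protocols, 250 ng of total RNA a sample was made into biotinylated sense-strand cDNA. The table had 35556 rows and 16 columns, with 0 missing values and 0 identical columns, and the deposited log2 values ran from 3.07 to 14.2. They were used without further normalization.

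Of the rows, 21789 carried 1 gene symbol in the platform annotation, 1621 several and 12146 were unlisted. Symbols were updated through Entrez identifiers with RefSeq's gene table (GRCm38.p6), which held 21698 of the 21789. Of several rows of a gene the one with the highest mean over the 16 arrays was kept, leaving 19938 genes. Fbl and Wdr12 had more than 1 row, and in both the kept row is, by its number, the less likely one to lie in the gene. In the list of RNA polymerase I genes, 3 members were matched by older symbols (Twistnb, Cd3eap and Znrd1).

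All tests were limma 3.58.1 fits under R 4.3.3. They used lmFit and eBayes with two-sided p-values, and calls were made at an adjusted p under 0.05 (Benjamini-Hochberg over all genes). The fits were deprived against control at 5 h, the mean difference over 1, 2 and 3 h with time as a factor, and the 5 h difference minus that mean. In the early fit and the fit of the shift a real change between the early times counts as error. Single-array differences were counted from 0.5 (1.41-fold) without a test. Tables and plots used Python 3.11.15, numpy 2.4.6, pandas 2.3.3 and matplotlib 3.10.9.

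The deviations of same-numbered 5 h arrays had correlations of 0.354, 0.584, 0.467 and 0.896. Unlike-numbered arrays among numbers 1 to 3 had 0.133 to 0.68, so the first 3 values do not stand apart. With numbers 1 to 3 alone the same-numbered correlations were 0.193, -0.00305 and -0.2, so the pairing rests on number 4. The numbers were taken as pairs and blocked values are given. The members, lists, tests and alternatives were chosen with earlier results of these data known. Every member was named, and of each further list up to 3 genes past the threshold at 5 h. The alternatives were the block, another quantile normalization, median centring, genes above the median level, the mean of rows, a trended and robust prior, array weights, other limits on single differences, and arrays left out.

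On simulated data with independent genes, the 5 h fit recovered 35 percent of genes with a change of 0.5 (80 genes), 92.5 percent with a change of 1 (80 genes) and 100 percent with a change of 2 (40 genes). The early fit recovered 0, 38.8 and 92.5 percent, and the fit of the shift 12.5, 70 and 97.5 percent, of 19938 genes each. These shares hold for the simulated scatter. Whether that scatter matches the early arrays was not tested, so the shares cannot give the power of the early fit or of the fit of the shift. In the measured data Rrs1 passed in the early fit with a difference of -0.56 (SE 0.08, against 0.30 at 5 h).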

Additional observations from a re-analysis of the deposited data

Results flagged for a closer look

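In 11 of 64 sets of 4 arrays (32 genes in both groups at 5 h), 1 array lay far from the other 3 by Dixon's criterion, which chance meets in about 1 of 20 sets. Such sets were not counted over all genes, so this number cannot show whether the members differ from other genes. In 10 of the 11 the outlying array was array 4. Over all genes array 4 was the lowest in both groups for 39.8 percent and the highest in both for 28.3 percent. Array 4 was the lowest for Polr1a in deprived cells (9.69 against 10.08 to 10.14 on the other 3 arrays) and in control cells (9.31, with the other 3 arrays at 9.91 or above), and for Utp4 in deprived (10.89 against 11.55 to 11.61) and control cells (10.28 against 11.27 to 11.44). It was also the lowest for Rrs1 in deprived cells (8.32 against 9.15 to 9.17), and in control cells for Polr1b (8.76 against 9.73 to 9.76) and Utp20 (9.35 against 9.70 to 9.76). It was the highest for Nop10 in deprived cells (10.07 against 9.77 to 9.80) and for Rrp1 in deprived (11.08 against 10.65 to 10.70) and control cells (11.31 against 10.60 to 10.67). For Ncl deprived array 3 was the highest (12.15 against 12.10 to 12.11).

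For 12 of 32 genes, and for 1.46 percent of all genes measured, the deprived array was below its control at each of 1, 2 and 3 h and above it in all 4 same-numbered pairs at 5 h. In these 12 members the 5 h difference minus the early one, with its adjusted p in limma without and with the replicate block, was largest for Rrs1. The members were Nop56 (0.31, adjusted p = 1, 0.168 with the block), Dkc1 (0.59, adjusted p = 0.397, 0.00388 with the block), Nolc1 (0.33, adjusted p = 1, 0.0599 with the block), Utp4 (0.47, adjusted p = 1, 0.0464 with the block), Utp15 (0.66, adjusted p = 0.402, 0.0146 with the block), Utp18 (0.52, adjusted p = 0.454, 0.0719 with the block), Heatr1 (0.27, adjusted p = 0.779, 0.153 with the block), Wdr75 (0.44, adjusted p = 0.328, 0.0319 with the block), Wdr12 (0.50, adjusted p = 0.277, 0.0529 with the block), Nop2 (0.39, adjusted p = 1, 0.0625 with the block), Rrs1 (1.07, adjusted p = 0.594, 0.00114 with the block) and Rrp1b (0.67, adjusted p = 0.122, 0.00282 with the block). None of these shifts passed without the block. A second array row of Wdr12, by its number the likelier one to lie in the gene, was above 0 at 1 h.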

How the results depend on the processing

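The number of members that rose at 5 h (4) was 7 with genes above the median level only, 14 with the replicate block, 12 with array weights, 10 without both arrays numbered 4, and 9 with the block and without these arrays, a setting added after seeing the data. It ran from 1 to 5 with single arrays left out, 1 without deprived array 1 or 2 and 2 without deprived array 3. The number that fell (0) was 2 with the block and 2 with array weights. The number lower over 1, 2 and 3 h (1) ran from 0 (without 2 h) to 3 (without 1 h). For the 5 h difference minus the early one, 0 members passed, against 11 with the block, 11 with array weights, 6 without both arrays numbered 4, 6 with block and without them, and 0 to 1 with single arrays or times left out. The median of that shift was 0.36, and 0.21 to 0.41 with single arrays or times left out, the lowest without control array 4. The members' median at 5 h ran from 0.12 to 0.26 and over the early times from -0.17 to -0.12 in the same way. With a limit of 0.3 in place of 0.5, members lower at 1, 2 and 3 h numbered 4, 10 and 4, and 2 were higher at 3 h. With a limit of 1, 0 were lower at 2 h, 0 lower at 3 h and 7 higher at 16 h. No share of all genes is given for the limit of 0.3, for array weights or for genes above the median level. Nor is one given with single arrays or times left out. Member counts in these settings therefore cannot show whether the members differ from all genes. The block changed calls as given beside each result, also that of Gnrh1 among the markers. No called gene changed sign in any alternative run. Since quantile normalization and median centring moved the median of all genes by under 0.1 at each time, no scaling shift is given. The number of arrays, 4 a group at 5 h and 1 elsewhere, limits the precision.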

Other observations

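Further genes of subunit assembly with a like course were picked out after their values were seen. Ltv1, a gene for a late small subunit factor, differed by -0.24, -0.40, -0.31, 0.32 and 1.10 at 1, 2, 3, 5 and 16 h. Esf1, whose yeast counterpart acts in small subunit RNA processing, differed by -0.02, -0.06, -0.07, 0.48 and 1.25 at the same times. Both passed at 5 h with the replicate block (adjusted p = 0.0084 and 0.000444 in limma) and not without it (0.644 and 0.38). Ddx49, a small subunit helicase gene, went the other way, with -0.24 at 5 h and -0.19 at 16 h.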
